A study of Homo sapiens with 18 samples.

Results

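TNC, FN1, THBS1, FBN1 and LUM encode 5 proteins of the extracellular matrix, and their messenger RNA levels are described here in 6 lines of HEK cells, an embryonic human kidney line. They are 5 of the 14884 genes that a probe set of the array named, with 1 probe set each. The genes were chosen by name, and the choice was made on earlier results for these same arrays, where several of them differed between lines. Levels and differences between lines are therefore given as a description, without a test.

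The 3 KO-labelled lines, A10, A30 and B21, carry the label ATXN1L-KO, and the 3 wild-type lines are the CRISPR controls N4 and N8 and the parental HEK cells. ATXN1L is a partner of the transcriptional repressor CIC. Each line was measured on 3 Affymetrix arrays numbered as replicates 1 to 3, which gives 18 arrays. All lines grew in DMEM with serum, and the protocol shared by all arrays describes CRISPR treatment, puromycin selection and isolation of single colonies, so A10, A30, B21, N4 and N8 are read here as 1 clone each. The protocol text does not set the parental cells apart. The labels do not say which part of ATXN1L was edited, and its array signal, between 7.05 and 7.61 in all 18 arrays, does not check the genotype. Nothing says whether the replicates came from separate cultures, so the spread within a line, and the p-values that rest on it, may be technical. The arrays measure RNA of whole cultures, so a change in the share of expressing cells and one in RNA per cell cannot be told apart.

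The extracellular matrix is the protein network that cells secrete around themselves. Fibronectin (FN1) is a soluble and fibrillar adhesive protein that integrins assemble into fibres. Tenascin C (TNC) and thrombospondin 1 (THBS1) are matricellular proteins, which tune adhesion and growth factor activity more than they bear load, and thrombospondin 1 can activate latent TGF-beta. Fibrillin 1 (FBN1) builds the microfibrils of elastic tissue, and lumican (LUM) is a small leucine-rich proteoglycan that binds collagen fibrils.

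The promoter windows of TNC, FN1, THBS1 and FBN1 are printed because 3 of these genes were high together in the KO-labelled lines and 1 was not, and because CIC binds a known DNA octamer. LUM was not matched in the promoter table. Each window runs 5′ to 3′ from 250 bases before to 50 bases after the RefSeq start of the gene (GRCh38.p14), 300 bases in all. Capitals mark GGGCGG, the GC box bound by SP1, on either strand (CCGCCC on the other strand), and GGAATG, a core of the TEAD motif.
TNC (chr9:115118108-115118407, minus strand): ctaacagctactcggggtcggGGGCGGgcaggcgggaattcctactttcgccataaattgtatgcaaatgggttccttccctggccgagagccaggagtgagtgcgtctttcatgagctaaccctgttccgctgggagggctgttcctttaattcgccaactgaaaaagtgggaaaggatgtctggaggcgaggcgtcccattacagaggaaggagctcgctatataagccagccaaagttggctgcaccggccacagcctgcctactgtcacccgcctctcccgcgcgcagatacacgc
FN1 (chr2:215436019-215436318, minus strand): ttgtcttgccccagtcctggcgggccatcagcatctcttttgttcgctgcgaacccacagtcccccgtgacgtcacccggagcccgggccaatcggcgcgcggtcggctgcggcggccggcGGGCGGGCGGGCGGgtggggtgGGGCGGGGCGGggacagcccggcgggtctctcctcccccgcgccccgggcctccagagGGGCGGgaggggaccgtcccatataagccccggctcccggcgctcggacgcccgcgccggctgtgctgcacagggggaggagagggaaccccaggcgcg
THBS1 (chr15:39580829-39581128, plus strand): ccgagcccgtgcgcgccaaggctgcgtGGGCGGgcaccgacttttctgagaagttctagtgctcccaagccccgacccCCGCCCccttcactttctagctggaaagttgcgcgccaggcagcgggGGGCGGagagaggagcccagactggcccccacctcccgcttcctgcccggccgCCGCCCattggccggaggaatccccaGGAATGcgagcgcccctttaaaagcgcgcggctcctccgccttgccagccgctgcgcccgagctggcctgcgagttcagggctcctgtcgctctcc
FBN1 (chr15:48644921-48645220, minus strand): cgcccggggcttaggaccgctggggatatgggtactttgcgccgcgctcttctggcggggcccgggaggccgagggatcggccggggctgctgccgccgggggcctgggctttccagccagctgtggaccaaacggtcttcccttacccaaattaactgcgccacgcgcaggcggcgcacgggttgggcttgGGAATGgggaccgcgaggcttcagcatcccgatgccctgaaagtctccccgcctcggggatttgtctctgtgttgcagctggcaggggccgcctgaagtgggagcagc

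None of the 4 CIC octamers searched on both strands (TGAATGAA, TGAATGGA, TCAATGAA and TCAATGGA) was found in these 4 windows. At least 1 of them was found in 3.77% of 35116 human promoter windows of the same length. The AP-1 site TGANTCA (7.71% of windows), the exact TATA box string TATAAA (11.5%) and the SRF CArG box (1.29%) were also not found in them. Other forms of the TATA box were not searched, so these windows may hold one. The GC box, present in 45.0% of windows, was found once in TNC, 6 times in FN1 with some copies overlapping, 4 times in THBS1 and not in FBN1. The TEAD core, present in 14.0% of windows, was found once in THBS1, at positions −46 to −41 from the start, and once in FBN1, at −58 to −53. The GC content was 57.3% in TNC, 76.7% in FN1, 70.0% in THBS1 and 68.3% in FBN1, against a median of 58.7% over all windows.

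Signals are on the deposited log2 scale, where a difference of 1 is a doubling, and each gene is compared only with itself, since probe sets differ in response. A gene counted as tested when at least 3 arrays exceeded 5.6, which kept 9686 genes. TNC, FN1, THBS1 and FBN1 exceeded it in all 18 arrays. LUM exceeded it in the 3 arrays of B21 and in 1 array of N4, so it passed only through the lines where it was high.

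The first A10 array was unlike its line. After subtraction of each gene's mean over all arrays, its correlation with the other A10 arrays over all tested genes was 0.0141 and 0.135, while every other pair of arrays of a line lay at 0.338 or above. Without that array the A10 minus wild-type difference was 0.43 for TNC, 0.45 for FN1, 1.11 for THBS1, 0.09 for FBN1 and 0.14 for LUM. The marker genes for HEK cells fixed for this check were largely present, with 11 of 13 measured genes above 5.6 in at least 9 arrays. PAX8 of that list was below 5.6 in every array. The list averaged 7.18 to 7.27 in the KO-labelled lines and 7.19 to 7.37 in the wild-type lines. Of 9 measured fibroblast markers, 3 were above 5.6 in at least 9 arrays, namely THY1, PRRX1 and FOXF1. DCN (1.99 to 2.51), DPT, MEOX2 and TCF21 were below 5.6 in every array. The fibroblast list averaged 4.95 to 5.04 in the KO-labelled lines and 4.91 to 5.01 in the wild-type lines.

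TNC was high in A30 and B21 and only slightly raised in A10. Its log2 signal in replicates 1, 2 and 3 was 6.55, 6.58 and 6.69 in A10, 8.16, 7.91 and 7.97 in A30, and 8.52, 8.23 and 8.35 in B21. It was 6.11, 6.26 and 6.06 in N4, 6.62, 6.30 and 6.27 in N8, and 6.19, 6.01 and 6.07 in the parental cells. All arrays of A30 and B21 lay above every other array, while A10 overlapped N8 through the single high N8 array.

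**Figure D1:**
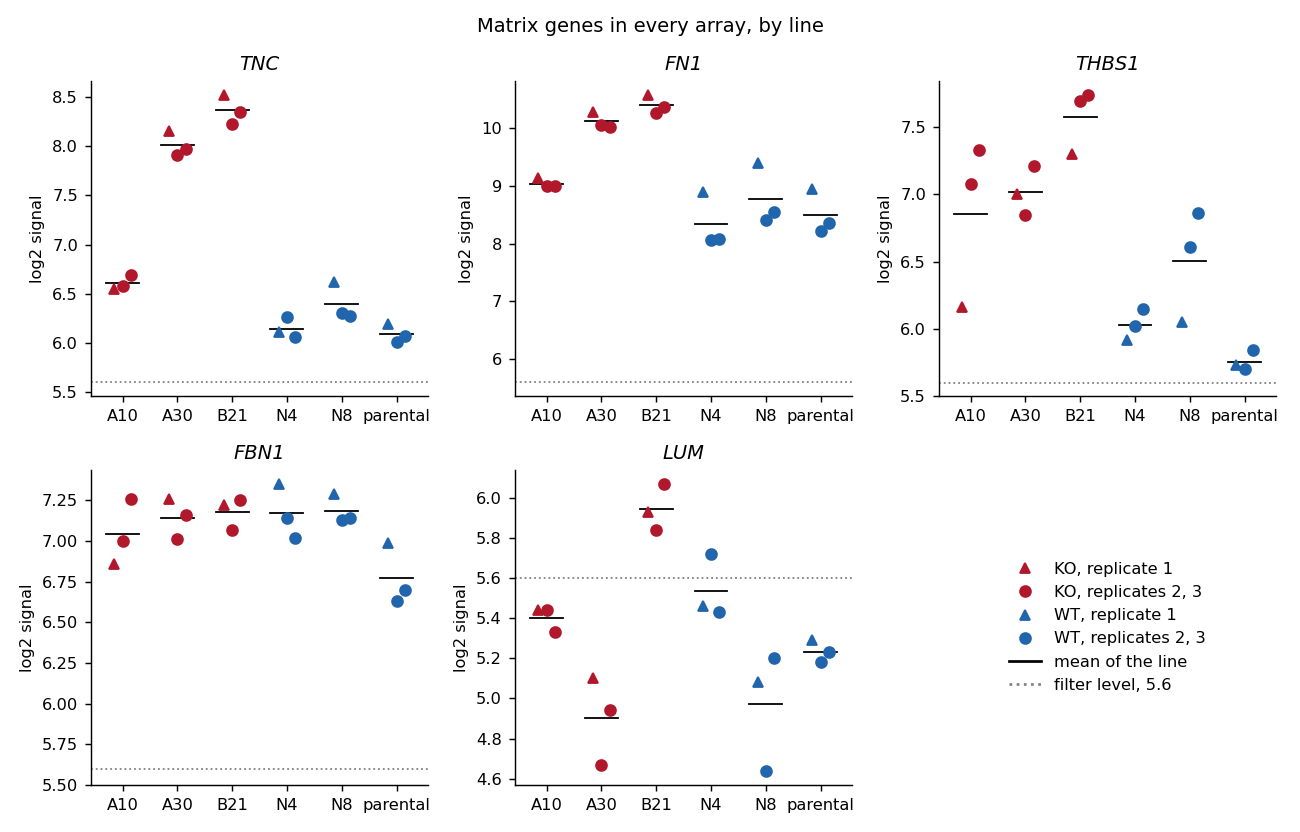
Log2 array signal (y axis, a separate scale for each gene) of TNC, FN1, THBS1, FBN1 and LUM in each line (x axis, KO-labelled lines red and wild-type lines blue), 1 symbol per array with replicate 1 as a triangle, the line mean as a black bar and the filter level of 5.6 dotted. TNC and FN1 of A30 and B21 sit above all other lines, THBS1 is highest in B21 and lowest in the parental cells, FBN1 is lowest in the parental cells, and only B21 has all its LUM arrays above 5.6.

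Over line means, TNC averaged 7.66 ± 0.93 in the KO-labelled lines and 6.21 ± 0.16 in the wild-type lines (SD, n = 3 lines each). The difference was 1.45 ± 0.37 (SE), a 2.74-fold higher signal. Against the mean of the wild-type lines, the A10 signal of TNC was 0.40 ± 0.08 higher, that of A30 1.80 ± 0.08 and that of B21 2.16 ± 0.08, so the lines spread widely around their own average. Among the KO-labelled lines the step between A30 and A10, at 1.41, was several times the step of 0.35 between B21 and A30, and the arrays overlapped in neither. From the lowest line upward the order was parental, N4, N8, A10, A30 and B21, and the array ranges overlapped between parental and N4 and between N8 and A10.

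FN1 had the same 2 lines at the top. Its log2 signal in replicates 1, 2 and 3 was 9.14, 8.99 and 8.99 in A10, 10.28, 10.06 and 10.02 in A30, and 10.57, 10.27 and 10.37 in B21. It was 8.89, 8.06 and 8.08 in N4, 9.40, 8.40 and 8.54 in N8, and 8.95, 8.21 and 8.35 in the parental cells. A30 and B21 overlapped with no other line, whereas replicate 1 of each wild-type line came close to A10 and that of N8 exceeded it.

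FN1 averaged 9.85 ± 0.72 in the KO-labelled lines and 8.54 ± 0.22 in the wild-type lines (SD, n = 3 lines each). The difference of 1.31 ± 0.30 (SE) is 2.48-fold. A10 lay 0.50 ± 0.20 above the wild-type lines, A30 1.58 ± 0.20 and B21 1.86 ± 0.20. The order of lines was N4, parental, N8, A10, A30 and B21, and A10 and A30 were the only neighbours in it without overlap. In replicates 2 and 3 alone the KO minus wild-type difference was 1.51 ± 0.29, and in replicate 1 alone it was 0.92 ± 0.31.

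The mean of THBS1 was higher in each of the 3 KO-labelled lines than in any wild-type line. Its log2 signal in replicates 1, 2 and 3 was 6.16, 7.08 and 7.33 in A10, 7.00, 6.85 and 7.21 in A30, and 7.30, 7.69 and 7.74 in B21. It was 5.92, 6.02 and 6.15 in N4, 6.05, 6.61 and 6.86 in N8, and 5.73, 5.70 and 5.84 in the parental cells. A10 spanned more than any other line, and its replicate 1 lay close to the N4 arrays.

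THBS1 averaged 7.15 ± 0.38 in the KO-labelled lines and 6.10 ± 0.38 in the wild-type lines (SD, n = 3 lines each), a difference of 1.05 ± 0.22 (SE) or 2.08-fold. A10 lay 0.76 ± 0.19 above the wild-type lines, A30 0.92 ± 0.19 and B21 1.48 ± 0.19. Without replicate 1 of A10, the A10 difference was 1.11. THBS1 also varied among the wild-type lines, and N8 lay 0.75 ± 0.23 above the parental cells. The order was parental, N4, N8, A10, A30 and B21, with overlap between N4 and N8, N8 and A10, and A10 and A30.

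FBN1 did not separate the genotypes. Its log2 signal in replicates 1, 2 and 3 was 6.86, 7.00 and 7.26 in A10, 7.26, 7.01 and 7.16 in A30, and 7.22, 7.07 and 7.25 in B21. It was 7.35, 7.14 and 7.02 in N4, 7.29, 7.13 and 7.14 in N8, and 6.99, 6.63 and 6.70 in the parental cells. The parental cells were lowest and the other 5 lines overlapped.

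FBN1 averaged 7.12 ± 0.07 in the KO-labelled lines and 7.04 ± 0.23 in the wild-type lines (SD, n = 3 lines each), a difference of 0.08 ± 0.12 (SE). It was −0.10 ± 0.15 in replicate 1 alone and 0.17 ± 0.13 in replicates 2 and 3 alone. Within the wild-type lines, N4 lay 0.40 ± 0.12 and N8 0.41 ± 0.12 above the parental cells. The A10, A30 and B21 differences from the wild-type mean were −0.0033, 0.10 and 0.14. With each line centred on neighbouring genes they were −0.11, 0.31 and 0.27, and in replicates 2 and 3 alone the A10 value was 0.17. Without A10 replicate 3 the A10 value was −0.11, and that of A30 was 0.04 without A30 replicate 1 and 0.17 without A30 replicate 2. Every neighbouring pair in the order of lines overlapped.

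LUM was dim, and its order of lines was unlike the others. Its log2 signal in replicates 1, 2 and 3 was 5.44, 5.44 and 5.33 in A10, 5.10, 4.67 and 4.94 in A30, and 5.93, 5.84 and 6.07 in B21. It was 5.46, 5.72 and 5.43 in N4, 5.08, 4.64 and 5.20 in N8, and 5.29, 5.18 and 5.23 in the parental cells. B21 was the highest line and A30, which shared the top places with it for TNC and FN1, was the lowest.

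LUM averaged 5.42 ± 0.52 in the KO-labelled lines and 5.25 ± 0.28 in the wild-type lines (SD, n = 3 lines each), a difference of 0.17 ± 0.24 (SE). A10 was 0.16 ± 0.11 and B21 0.70 ± 0.11 above the wild-type lines, while A30 had a difference of −0.34 ± 0.11. The A30 value was −0.23 without A30 replicate 2, and −0.20 without the line N4. The A10 value was 0.10 without N8 replicate 2. The B21 signal was 1.04 ± 0.13 above that of A30 as deposited, with all A30 arrays below the filter. Outside B21, 14 of 15 arrays lay below 5.6, where no detection call was used.

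The means of the 3 KO-labelled lines all lay above those of the 3 wild-type lines for TNC, FN1 and THBS1, 3 of the 5 genes. This held for 7.41% of the 9686 tested genes and for 11 of 130 other matrix genes. The choice of these genes used the same contrast, so the 3 of 5 is no evidence about them. Across all tested genes, limma called 0 genes between the genotypes over line means (0%), with 937 at an unadjusted p under 0.05. A10 against the wild-type lines gave 8.40% of genes called at an adjusted p under 0.05, A30 29.3% and B21 16.0%. N4 against the parental cells gave 0.547%, and N8 against them 14.7%. The single-line tests cover the spread between arrays of a line and not that between independently made clones.

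The arrays were also compared by replicate number within each line, a contrast that was not used to choose the genes. In a fit with a term for each line, FN1 rose and THBS1 fell in replicate 1 against replicates 2 and 3. FN1 was higher in replicate 1 by 0.51 ± 0.08 (SE), or 1.42-fold, in 6 of 6 lines (limma, adjusted p = 0.00118 over 9686 genes). THBS1 was lower in replicate 1, with a difference of −0.40 ± 0.11 (limma, adjusted p = 0.0190). Its difference was below 0 in 6 of 6 lines, but only −0.03 in A30 and −0.04 in the parental cells. TNC differed by 0.13 ± 0.05 (adjusted p = 0.0919), FBN1 by 0.12 ± 0.07 (adjusted p = 0.214) and LUM by 0.08 ± 0.08 (adjusted p = 0.529), all from the same limma fit. Thus 2 of 5 genes were called, against 18.6% of all tested genes. What distinguished replicate 1 is not given in the labels.

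**Figure D2:**
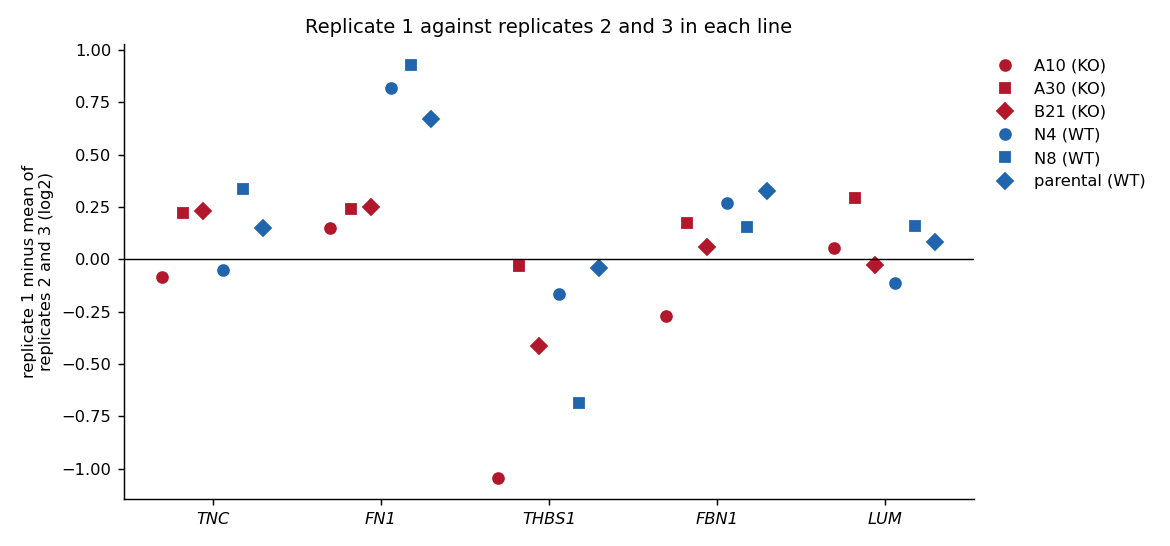
Log2 signal of replicate 1 minus the mean of replicates 2 and 3 (y axis) for each matrix gene (x axis), 1 symbol per line, KO-labelled lines in red to the left of wild-type lines in blue. For FN1 the 3 wild-type lines (0.67 to 0.93) lie above the 3 KO-labelled lines (0.15 to 0.25). For THBS1 all 6 lines lie below 0, with A10 lowest at −1.05 but A30 at −0.03 and the parental cells at −0.04.

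The THBS1 call rested partly on replicate 1 of A10, whose difference in that line was −1.05. Without that array THBS1 differed by −0.27 ± 0.09 (limma, adjusted p = 0.0593) in 5 of 5 lines and was no longer called. In the same fit FN1 was called at 0.58 ± 0.08 (adjusted p = 0.00119), TNC at 0.18 ± 0.05 (limma, adjusted p = 0.0357, higher in 4 of 5 lines) and FBN1 at 0.20 ± 0.05 (limma, adjusted p = 0.0253, 5 of 5 lines). The count of called genes then became 3 of 5, against 15.4% of all tested genes in that fit. The THBS1 call was also lost without N8 replicate 1, at −0.34 (limma, adjusted p = 0.0770). TNC was also called without N4 replicate 2, at 0.15 (limma, adjusted p = 0.0481).

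The size of the FN1 step depended on the line. In A10 replicate 1 exceeded the mean of replicates 2 and 3 by 0.15, in A30 by 0.24 and in B21 by 0.25. It did so by 0.82 in N4, 0.93 in N8 and 0.67 in the parental cells. The KO-labelled and wild-type lines did not overlap in this step. The share of all tested genes without such overlap was not counted, so the lack of overlap is description only. The comparison was added after these values had been seen. The KO minus wild-type value of the FN1 step was −0.59 ± 0.08 on the log2 scale (limma interaction, adjusted p = 0.0333). The fit was on arrays, so its SE and p rest partly on the spread between replicates 2 and 3 within lines. They do not measure only how the step varied between independently made clones. FN1 was the 1 gene called of 9686 (0.0103%), with 764 at an unadjusted p under 0.05. Without replicate 1 of A10 the value was −0.56 ± 0.09 (limma, adjusted p = 0.14). The call was lost in 14 of 18 fits without 1 array and kept in 4, those without parental replicate 1 or 3, A10 replicate 2 or B21 replicate 1. The value itself stayed between −0.66 and −0.53 in all 18.

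Fitted apart, the wild-type lines gave an FN1 step of 0.81 ± 0.07 (limma, adjusted p = 0.000674), and the KO-labelled lines one of 0.21 ± 0.06 (limma, adjusted p = 0.116). FBN1 rose by 0.25 ± 0.06 in the wild-type lines (limma, adjusted p = 0.0265), and its value in the KO-labelled lines was −0.01 ± 0.10 (limma, adjusted p = 0.965). The difference between these FBN1 values was −0.26 ± 0.12 (limma interaction, adjusted p = 0.612). In the KO-labelled lines alone the limma p before adjustment was under 0.05 for 2 of the 5 genes and for 1663 of 9686 tested genes. After adjustment limma called 0 of the 5 there, and 3 of 9686 over all tested genes (0.0310%). In the wild-type lines alone it called 2 of the 5, against 9.99% of all tested genes.

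Across the 18 arrays TNC and FN1 moved closely together (Pearson r = 0.951), and THBS1 followed TNC less closely (r = 0.800). These correlations are descriptions over arrays that share 6 lines, and A30 and B21 form a group of their own. FBN1 (r = 0.385) and LUM (r = 0.264) had little relation to TNC. With each line's mean removed, TNC and FN1 still varied in the same direction (r = 0.589), and FN1 and FBN1 did so at r = 0.648. THBS1 then ran the other way from FN1 (r = −0.497) and from TNC (r = −0.282). So THBS1 was high in the same lines as FN1, but in A10, B21, N4 and N8 it was lowest in the array where FN1 was highest. The step of that array from the rest of its line was largest in A10 (−1.045) and N8 (−0.685). In A30 the array with the highest FN1 had THBS1 at 7.0, between the other arrays at 6.85 and 7.21. In the parental cells it was likewise in the middle, at 5.73 between 5.7 and 5.84.

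**Figure D3:**
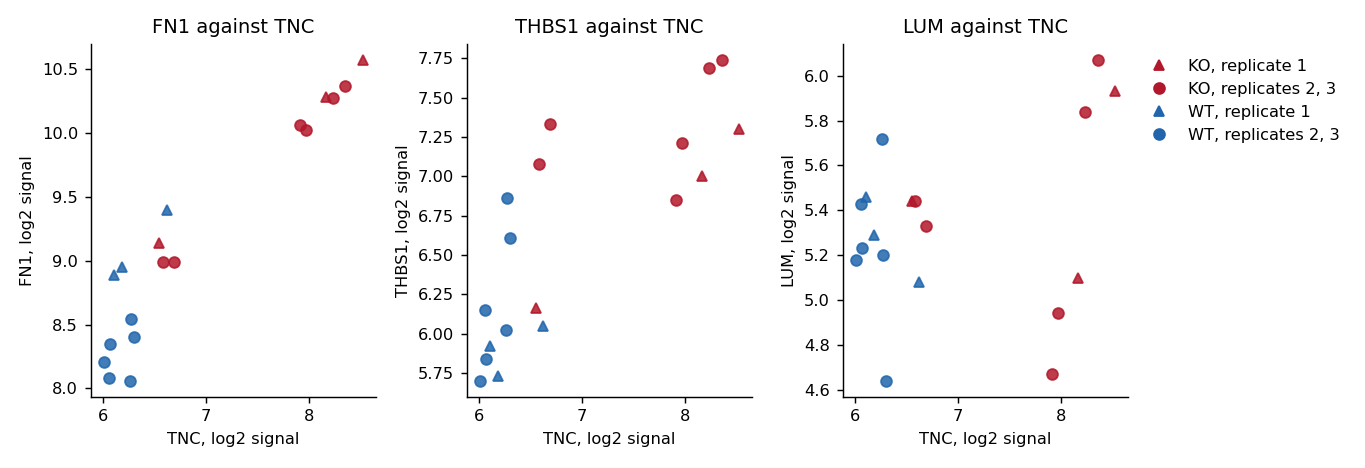
Log2 signals of FN1, THBS1 and LUM (y axes) against TNC (x axis), 1 symbol per array, KO-labelled lines red, wild-type lines blue and replicate 1 as triangles. FN1 follows TNC over the whole range (r = 0.951), THBS1 follows it more loosely (r = 0.800), and LUM splits the arrays with high TNC between B21 above and A30 below.

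Of all tested genes, the most similar to TNC over the arrays were VLDLR, a lipoprotein and reelin receptor (r = 0.974), PLK2, a polo-like kinase (r = 0.967), and FN1 itself. Closest to FN1 were RTTN, a centriole protein (r = 0.961), TNC, and PHLPP1, a phosphatase of AKT (r = 0.945). THBS1 was closest to MALT1, a paracaspase (r = 0.951), BICC1, an RNA-binding protein (r = 0.944), and IER3, an immediate early response gene (r = 0.929). With line means removed THBS1 and BICC1 were still at r = 0.929 and THBS1 and IER3 at 0.829, whereas TNC and PLK2 were at −0.0159. FBN1 was closest to the forkhead gene FOXI3 (r = 0.791), SLC49A4 (r = 0.777) and TMEM25 (r = 0.771). LUM was closest to GALNT2, which starts O-linked glycosylation (r = 0.845), TMC7 (r = 0.841) and TIAM2 (r = 0.835).

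RTTN, PHLPP1 and MALT1 all lie on chromosome 18. The KO minus wild-type differences of the 40 tested genes around each had a median of 0.20 for RTTN, 0.20 for PHLPP1 and 0.19 for MALT1. The 27 tested genes around VLDLR, on chromosome 9, had a median of 0.22. The median over all tested genes was −0.0022. On chromosome 18 the 3 windows overlap and share the same range, −0.92 to 0.97, and their medians were 0.04 to 0.06 in A10 but 0.24 to 0.27 in A30 and B21. The VLDLR window had medians of 0.13 in A10, 0.21 in A30 and 0.26 in B21. The part of such regional shifts in the likeness was not tested.

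TNC, FN1 and THBS1 had differences well above those of the genes around them. TNC lies on chromosome 9, FN1 on chromosome 2, THBS1 and FBN1 on chromosome 15 and LUM on chromosome 12. Among the 20 tested genes on either side, the KO minus wild-type differences had a median of −0.01 around TNC (range −0.18 to 0.37), −0.03 around FN1 (−0.57 to 0.36) and −0.07 around THBS1 (−0.32 to 0.27). None of those 40 genes exceeded TNC, FN1 or THBS1 in its own window. The choice of these genes used the same contrast, so their rank among their neighbours is no evidence about them. FBN1 was exceeded by 4 of its 40 neighbours and LUM by 3.

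**Figure D4:**
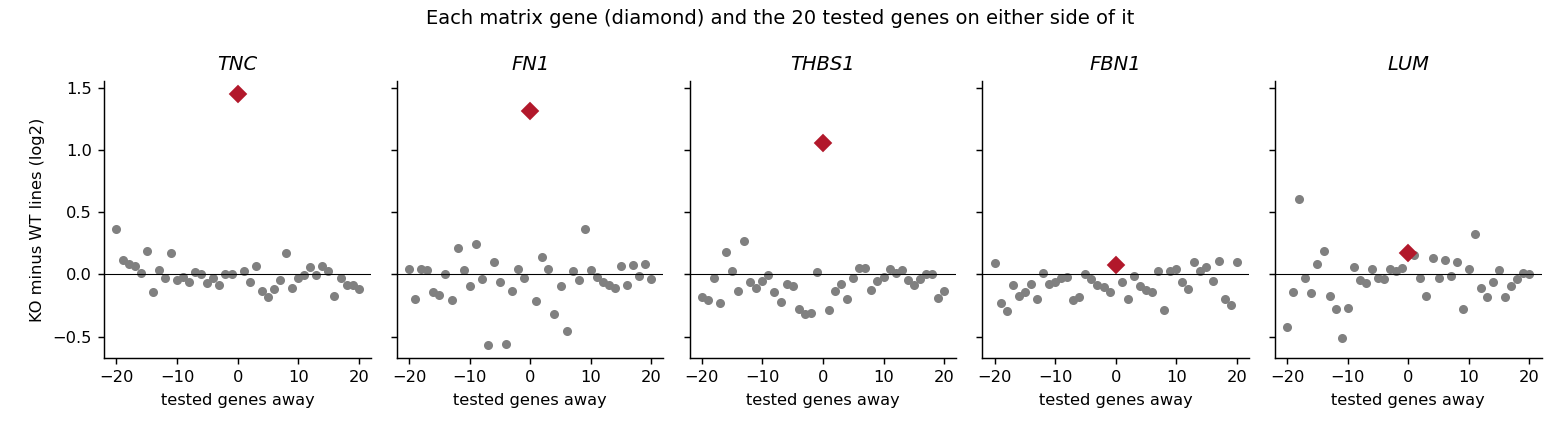
KO minus wild-type difference over line means in log2 (y axis) for each matrix gene (red diamond) and for the 20 tested genes on either side of it (grey points), by their distance in tested genes along the chromosome (x axis). TNC (1.45), FN1 (1.31) and THBS1 (1.05) lie above all 40 of their neighbours, and FBN1 (0.08) and LUM (0.17) lie among theirs.

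The nearest tested genes had smaller values. TMEM268 and ASTN2, on either side of TNC, differed by 0.01 ± 0.09 and 0.03 ± 0.10. ATIC and MREG, beside FN1, differed by −0.03 ± 0.10 and −0.21 ± 0.09. RASGRP1 and GPR176, beside THBS1, differed by 0.02 ± 0.10 and −0.28 ± 0.12. DUT and CEP152 beside FBN1 differed by −0.14 ± 0.08 and −0.06 ± 0.08, and POC1B-GALNT4 and EEA1 beside LUM by 0.05 ± 0.08 and 0.15 ± 0.10.

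The other matrix genes had a median difference near 0 between the genotypes, and calls in both directions in single lines. Of 325 other matrix genes listed by role, 180 had a symbol on the array and 130 were tested. Over line means limma called 0 of the 130 between KO-labelled and wild-type lines. Of the 130, 26 were at an unadjusted p under 0.05, a larger share than the 937 of 9686 over all tested genes. The median difference of the 130 was −0.0089, against −0.0022 for all tested genes, and 60 lay above 0 and 70 below. Single lines gave more calls: 9 up and 8 down in A10, 22 up and 23 down in A30, and 27 up and 9 down in B21. The share called was 13.1% in A10, against 8.40% of all tested genes, 34.6% in A30, against 29.3%, and 27.7% in B21, against 16.0%. These all-gene shares are the background for the role groups that follow. Against the parental cells N4 gave 0 calls, with 18 of 130 at an unadjusted p under 0.05 (1276 of 9686 over all tested genes). N8 gave 20 up and 5 down, 19.2% of the 130, against 14.7% of all tested genes.

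The A10 count depended on its arrays. It was 29 in place of 17 without replicate 1 of A10, and 8 without replicate 2 or 3. The B21 count was 19 in place of 36 without B21 replicate 3. The N8 count of 25 was 15 without parental replicate 2 and 16 without parental replicate 1 or 3 or N8 replicate 3. The N4 count of 0 was 1 without N4 replicate 1, N8 replicate 1 or N8 replicate 2, and 2 without A10 replicate 1. The KO minus wild-type count of 0 was 1, EDIL3, without A10 replicate 1.

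EDIL3, a secreted glycoprotein that binds integrins, was called in all 3 KO-labelled lines. Its mean was 8.54 in A10, 9.07 in A30 and 9.01 in B21, against 8.0 in N4, 7.87 in N8 and 7.75 in the parental cells, with no overlap of line means. A10 lay 0.67 ± 0.09 above the wild-type lines (limma, adjusted p = 0.000161). A30 lay 1.19 ± 0.09 above them (limma, adjusted p = 8.36e-08), and B21 1.13 ± 0.09 (limma, adjusted p = 2.48e-07). Over line means its difference was 1.00 ± 0.14 (limma, adjusted p = 0.0896), and without replicate 1 of A10 it passed the test (1.03, limma, adjusted p = 0.0430). SDC4, the syndecan that joins integrins in focal adhesions, was the other gene called in the same direction in all 3 lines, with 0.36 ± 0.08 in A10 (limma, adjusted p = 0.00962), the lower value of 0.24 ± 0.08 in A30 and 0.27 ± 0.08 in B21. Without A10 replicate 1 the A10 values were 0.77 for EDIL3 and 0.49 for SDC4, both called. SDC4 was also called in N8 against the parental cells, by 0.35 ± 0.10 (limma, adjusted p = 0.0265). Its mean in N8, 8.883, was above those in A30 (8.837) and B21 (8.873). The 3 single-line comparisons share the same wild-type arrays, so their calls are not independent. The share of all tested genes called in the same direction in all 3 lines was not computed.

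**Figure D5:**
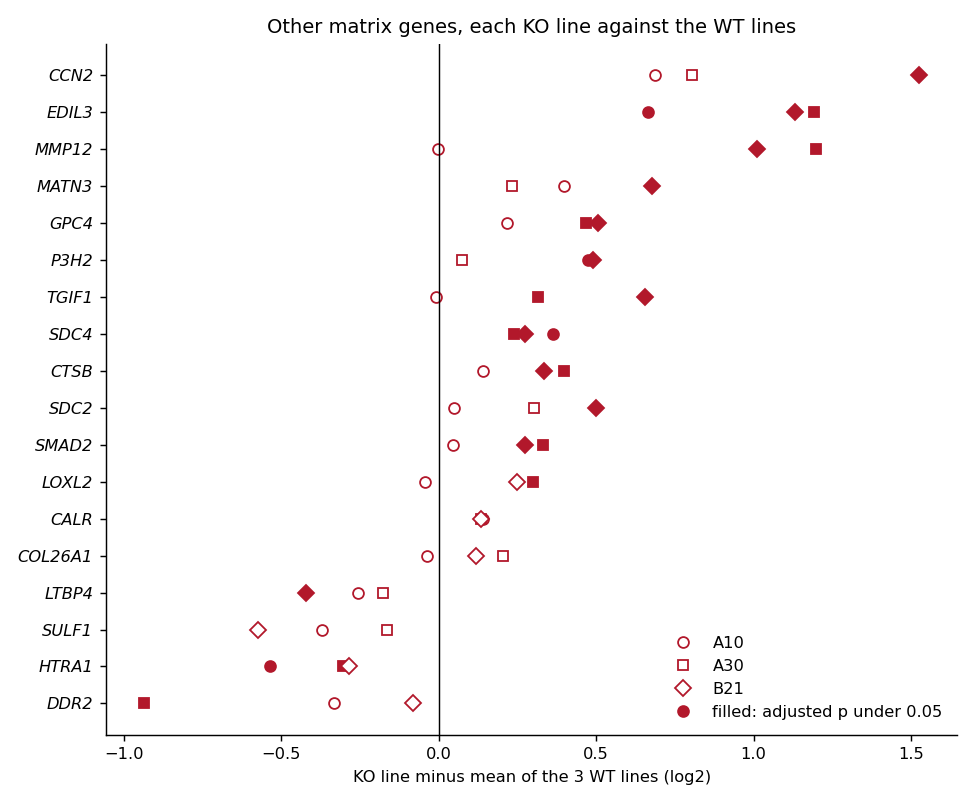
Difference in log2 signal between each KO-labelled line and the mean of the 3 wild-type lines (x axis) for the other matrix genes named by rule (y axis, ordered by the mean over the KO-labelled lines), with circles for A10, squares for A30 and diamonds for B21, filled where the adjusted p was under 0.05. Only EDIL3 and SDC4 have 3 filled symbols, and CCN2 (1.52) and MMP12 (1.01) are filled in B21.

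Among 44 tested matrix glycoproteins and elastic fibre genes, the group that TNC, FN1, THBS1 and FBN1 belong to, 3 rose and 2 fell in A10, 6 rose and 9 fell in A30, and 11 rose and 3 fell in B21. The share called was 11.4% in A10, 34.1% in A30 and 31.8% in B21. The median KO minus wild-type difference was −0.02, with 18 above 0 and 26 below. CCN2, the matricellular connective tissue growth factor, averaged 9.82 ± 0.45 in the KO-labelled lines and 8.82 ± 0.46 in the wild-type lines (SD, n = 3 lines each). It rose in B21 by 1.52 ± 0.41 (limma, adjusted p = 0.0164), and its values were 0.69 in A10 and 0.80 in A30. MATN3, a matrilin of cartilage, rose in B21 by 0.68 ± 0.14 (limma, adjusted p = 0.00418). Its means in N4 (5.39) and N8 (5.53) lay below 5.6, where it may be near background. Only 1 of 41 listed collagen genes, COL26A1, was matched to a symbol, and its KO minus wild-type difference was 0.10 ± 0.09, and 0.06 without A30 replicate 2.

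Among 20 tested proteoglycans, the group of LUM, the median difference was −0.03. In A10 2 rose and 2 fell, in A30 2 rose and 4 fell, and in B21 3 rose and 3 fell (4 of 20 called in A10 and 6 of 20 in both A30 and B21). The glypican GPC4 rose by 0.47 ± 0.09 in A30 (limma, adjusted p = 0.000799) and by 0.51 ± 0.09 in B21 (limma, adjusted p = 0.00107), and its value in A10 was 0.22 ± 0.09. The syndecan SDC2 rose in B21 by 0.50 ± 0.12 (limma, adjusted p = 0.0101).

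Of 10 tested matrix receptors, 2 rose and 1 fell in A10, 3 rose and 2 fell in A30, and 2 rose in B21, with a median difference of 0.07. The count called was 3 of 10 in A10, 5 of 10 in A30 and 2 of 10 in B21. DDR2, a collagen receptor, fell by 0.93 on the log2 scale in A30 (SE 0.11, limma, adjusted p = 7.75e-06), and its values were −0.33 in A10 and −0.08 in B21. CD44, the hyaluronan receptor, was named after its values were seen. It fell by 0.56 in A10, and rose by 0.48 in A30 and by 1.12 in B21, all past the test. Without A10 replicate 1 its A10 value was −0.71, also called. CALR, an endoplasmic reticulum chaperone found also at the cell surface, differed by 0.14 ± 0.08 over line means.

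Among 27 tested matrix proteases and inhibitors, 1 rose and 3 fell in A10, 5 rose and 6 fell in A30, and 6 rose and 1 fell in B21, with a median difference of −0.02. That is 4 of 27 called in A10, 11 of 27 in A30 and 7 of 27 in B21. The metalloelastase MMP12 rose by 1.20 ± 0.14 in A30 (limma, adjusted p = 1.16e-05) and 1.01 ± 0.14 in B21 (limma, adjusted p = 0.00014), and its value in A10 was −0.0011. It was at or below 5.03 on average in A10 and the wild-type lines, where it may be near background. The secreted serine protease HTRA1 fell by 0.54 in A10 and by 0.30 in A30, where the call lay at the threshold (limma, adjusted p = 0.0499). Its value in B21 was similar, −0.28 (limma, adjusted p = 0.0960). Without A10 replicate 1 the A10 value of HTRA1 was −0.66 and was called. The lysosomal protease CTSB rose by 0.40 in A30 and 0.33 in B21.

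Of 13 tested folding and crosslinking enzymes, 1 rose in A10, 3 rose and 1 fell in A30, and 2 rose and 1 fell in B21, with a median of 0.06 and shares of 7.7% in A10, 30.8% in A30 and 23.1% in B21. The collagen prolyl 3-hydroxylase P3H2 rose by 0.47 in A10 (0.60, also called, without A10 replicate 1) and by 0.49 in B21, and the lysyl oxidase relative LOXL2 by 0.30 in A30. The heparan sulfatase SULF1 differed by −0.37 ± 0.11 over line means (limma, adjusted p = 0.445), and by −0.22 without N8 replicate 1. Of 16 tested TGF-beta and latency genes, 1 rose in A10, 4 rose and 1 fell in A30, and 4 rose and 1 fell in B21, with a median of 0.04 and shares of 6.2% in A10 and 31.2% in both A30 and B21. SMAD2, a receptor-activated SMAD, rose by 0.33 in A30 and 0.27 in B21, and TGIF1, a corepressor of SMADs, by 0.32 and 0.66 in those lines. The latent TGF-beta binding protein LTBP4 fell by 0.42 in B21.

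Between replicate 1 and replicates 2 and 3, limma called 38 of the 130 other matrix genes, 31 higher and 7 lower in replicate 1, against the 18.6% called over all genes. The glycoproteins and elastic fibre genes made up 15 of the rises and 2 of the falls, with a median of 0.08 against −0.01 for all tested genes. CCN2 fell by 0.98 in replicate 1 (SE 0.20, limma, adjusted p = 0.00355), so it went the way of THBS1. HTRA1 rose by 0.26 (limma, adjusted p = 0.00576) and SULF1 by 0.57 (limma, adjusted p = 0.00508), so they went the way of FN1.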

How the data were processed

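RNA of 18 HEK arrays was extracted with the Qiagen miRNeasy kit, per the labels' protocols. The authors deposited log2 signals, 1 per probe set and array, from Affymetrix Expression Console, per the submitters' processing notes. No version or algorithm is stated there. The log2 scale was read from the values (0.57 to 14.84), and the signals were used as deposited, without normalisation, since array medians lay between 5.09 and 5.18. Of 53617 probe sets, 16098 had 1 symbol and 37519 none. Genes with several probe sets took the one with the highest mean. Genes above 5.6 (the 40th percentile of named-gene values) in at least 3 arrays were tested.

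limma 3.58.1 in R 4.3.3 was fitted to all 9686 tested genes and tested on simulated data. The genotypes were compared on line means, and single lines and replicate numbers on arrays. The call was a two-sided Benjamini-Hochberg adjusted p under 0.05. An exact permutation test of 3 lines against 3 cannot reach below p = 0.1. The number of arrays limits the precision. The genes and the lists of other matrix genes and markers were chosen with earlier results of these data known. Named beside them are the 3 genes of each list with the smallest genotype p, list genes called in the same direction in all 3 KO-labelled lines, the 3 genes most correlated with each of the 5 and their nearest tested neighbours. Alternatives were other filters, quantile normalisation, the mean of probe sets, limma with trend, a replicate block, lines as a random block, stricter calls, centring on neighbouring genes, and fits without each line or array. Promoters are from RefSeq (GRCh38.p14), matched by symbol for 4 of 5 genes.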

Additional observations from a re-analysis of the deposited data

Results flagged for a closer look

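FN1 stood out because its step between replicate 1 and replicates 2 and 3 differed between the genotypes. The KO minus wild-type value of that step was −0.59 ± 0.08 (limma interaction, adjusted p = 0.0333), a step of 0.21 in the KO-labelled lines and of 0.81 in the wild-type lines. The comparison was fitted on arrays and not on lines, and it was added after the values were seen. The call was lost under quantile normalisation (−0.57, limma, adjusted p = 0.0672) and without a filter on dim genes (limma, adjusted p = 0.150).

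Among the 9 wild-type arrays, TNC in replicate 1 of N8 lay at 6.62, far above the nearest other wild-type array by Dixon's criterion. It was the 1 array that stood out in 10 groups of 9 arrays, and chance gives about 1 in 20 groups.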

How the results depend on the processing

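In every alternative run, TNC, FN1 and THBS1 kept a positive KO minus wild-type difference (1.43 to 1.49, 1.25 to 1.42 and 0.97 to 1.17 without 1 array). Leaving out a whole line moved it more. TNC was 1.10 without B21 and 1.98 without A10, and FN1 was 1.04 and 1.72 in the same fits. THBS1 was 0.84 without B21 and 1.26 without N8. In replicate 1 alone FN1 was 0.92. LUM was −0.09 without the line B21, 0.03 without N8, 0.31 without N4 and 0.43 without A30. FBN1 turned to −0.10 in replicate 1 alone and −0.06 without the parental line, and was 0.16 with neighbour centring, and it ran from 0.04 to 0.11 and LUM from 0.11 to 0.21 without 1 array. The 2 of 5 genes called between replicate numbers became 1 without the line N8 or B21, 1 at an adjusted p under 0.01, 3 without the line A10, 0 with a 1.5-fold minimum and 0 in the KO-labelled lines alone, and ran from 1 to 3 without 1 array. The 1 interaction call became 0 with no filter, with quantile normalisation, at an adjusted p under 0.01 and without the line N4, N8, A10, A30 or B21, and ran from 0 to 1 without 1 array.

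Of other matrix genes, the KO minus wild-type count of 0 became 1 with the line as a random block and in replicates 2 and 3 alone, and 3 without the line A10, and ran from 0 to 1 without 1 array. The A10 count of 17 became 45 in replicates 2 and 3 alone, 10 at an adjusted p under 0.01 and 2 with a 1.5-fold minimum, and ran from 8 to 29 without 1 array. The A30 count of 45 became 10 with a 1.5-fold minimum and 27 with neighbour centring (added after the data were seen), and ran from 30 to 49. The B21 count of 36 became 23 and 16 under the stricter p and fold, and ran from 19 to 39. The N4 count of 0 became 1 with trend and robust variance, 1 without the line N8 and 2 in replicates 2 and 3 alone, and ran from 0 to 2. The N8 count of 25 became 15 with no filter, 9 with neighbour centring, 10 and 8 under the stricter p and fold, and ran from 15 to 29. The causes were not tested.

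With replicate number as a block the A10 count became 28 and the N4 count 3, and the A30, B21 and N8 counts 56, 49 and 36. The numbers did not meet the criterion for pairing, since 10 of 15 replicate 3 pairs of lines correlated above 0.1. However, 15 of 15 replicate 1 pairs and 14 of 15 replicate 2 pairs did so, and 15 of 18 arrays correlated best with their own number. The main single-line fits hold no term for replicate number. Signals near 5.6 limit what can be said of LUM.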
